A study of Mus musculus and Homo sapiens with 33 samples.

Results

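Mitochondrial ribosome and import genes were taken as the protein-coding rows of the H358 table whose symbol starts with MRPL, MRPS, TIMM or TOMM, and as the mouse genes of the same prefixes in the LLC1 table. The rule gave 104 of the 20347 genes in the H358 table and 2 of the 2509 rows in the LLC1 table, Timm9 and Timm8a1. The series holds 33 total RNA libraries in 11 groups of 3, of which 4 groups were used here. H358, derived from human non-small-cell lung cancer, carried cEMSY overexpression in 3 libraries and an empty vector (EV) in 3. LLC1, a mouse lung cancer line, carried cEmsy overexpression in 3 libraries and an empty vector in 3. cEMSY and cEmsy are circular RNAs, and the empty-vector cells are given as wild type in the labels, with no further treatment named. The other 21 libraries form a drug panel measured as circular RNAs by position, which was not used here. Replicates carry the numbers 1 to 3, with no word on separate cultures. The p-values thus reflect only the spread among these libraries, possibly of technical origin.

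Mitochondria translate the few proteins encoded in their own DNA on a dedicated ribosome. Its rRNAs are mitochondrially encoded, while its proteins (most with the prefix MRPL or MRPS) are encoded in the nucleus, made in the cytosol and imported. Import begins at the translocase of the outer membrane (TOMM genes), after which the TIM23 complex handles proteins with a cleavable presequence, the TIM22 complex inserts carrier proteins into the inner membrane, and small TIM chaperones escort hydrophobic proteins across the space between the membranes.

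Not every symbol with these prefixes encodes such a protein. MRPS36 is an adaptor of the 2-oxoglutarate dehydrogenase complex, TIMMDC1 is an assembly factor of respiratory complex I, TOMM34 is a cytosolic co-chaperone, and TIMM23B-AGAP6 is a readthrough gene. MRPS30 and MRPS18A, despite their names, sit in the large subunit, and they are counted there. Of the 104 genes, 51 were assigned to the large subunit, 26 to the small subunit, 17 to TIMM and 9 to TOMM, and MRPS36 stood apart.

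For H358 the values were the authors' own comparison, with a log2 fold change of cEMSY over empty vector, its standard error (SE) and an adjusted p-value per gene. EMSY, the gene that gives rise to the circle, stood 3.84 ± 0.07 higher (log2, SE) per the authors' deposited table, a gene-level value that does not separate circular from linear transcripts. All 104 members had an adjusted p-value, and their mean signal over all libraries ran from 52.7 to 6355 in that table. The median SE per the authors' deposited table was 0.11 for the members and 0.24 for all genes, so members were measured more precisely than the average row. Levels per library and sequencing depth were not used here. Many ribosomal protein genes have processed pseudogenes, and how reads shared with such copies were counted is not known. In bulk RNA, fewer cells with a transcript and less of it per cell cannot be told apart.

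In H358 cells with cEMSY, 36 of the 104 mitochondrial ribosome and import genes were modestly lower and 3 were higher. An adjusted p under 0.05 was reached by 39 of the 104 genes per the authors' deposited table, 36 lower and 3 higher, while 65 did not pass. Over all genes with an adjusted p, 16.8% passed as lower, 15.6% as higher and 32.4% in either direction. Over protein-coding genes these shares were 21.3%, 18.3% and 39.6%. The members stood at 34.6% lower and 2.88% higher, against 24.8% lower, 19.4% higher and 44.2% in either direction for protein-coding genes within the members' range of mean signal. The background is itself high, and how far the lower share stands above it depends on the scaling, as given below. The median log2 fold change was -0.17 for the members, -0.04 for the protein-coding genes of that range and 0.04 for all genes per the authors' deposited table. Of the 104 estimates 75 were negative.

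The changes were small. In the authors' deposited table the members ran from -0.68 for TOMM40 to 0.52 for MRPL34 on the log2 scale. The table carries the authors' own flag, which equals an adjusted p under 0.05 with an absolute log2 fold change over 1. The flag of the authors' deposited table marked 1814 genes (9.47% of those with an adjusted p) and 0 of the 104 members, although 39 members passed the adjusted p alone. Of the 65 members that did not pass, 54 had a 95% interval wholly between -0.5 and 0.5 (log2) per the authors' deposited table. When fold changes were taken relative to the median of all genes, 40 members (38.5%) were lower and 2 (1.92%) higher, against 27.7% and 17.7% of protein-coding genes in the members' signal range. Relative to the median of those protein-coding genes, 25 members (24.0%) were lower and 3 (2.88%) higher, against 21.3% and 21.6%. At that scaling the lower share was near its background, while the higher share was below its background at each of these scalings.

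**Figure D1:**
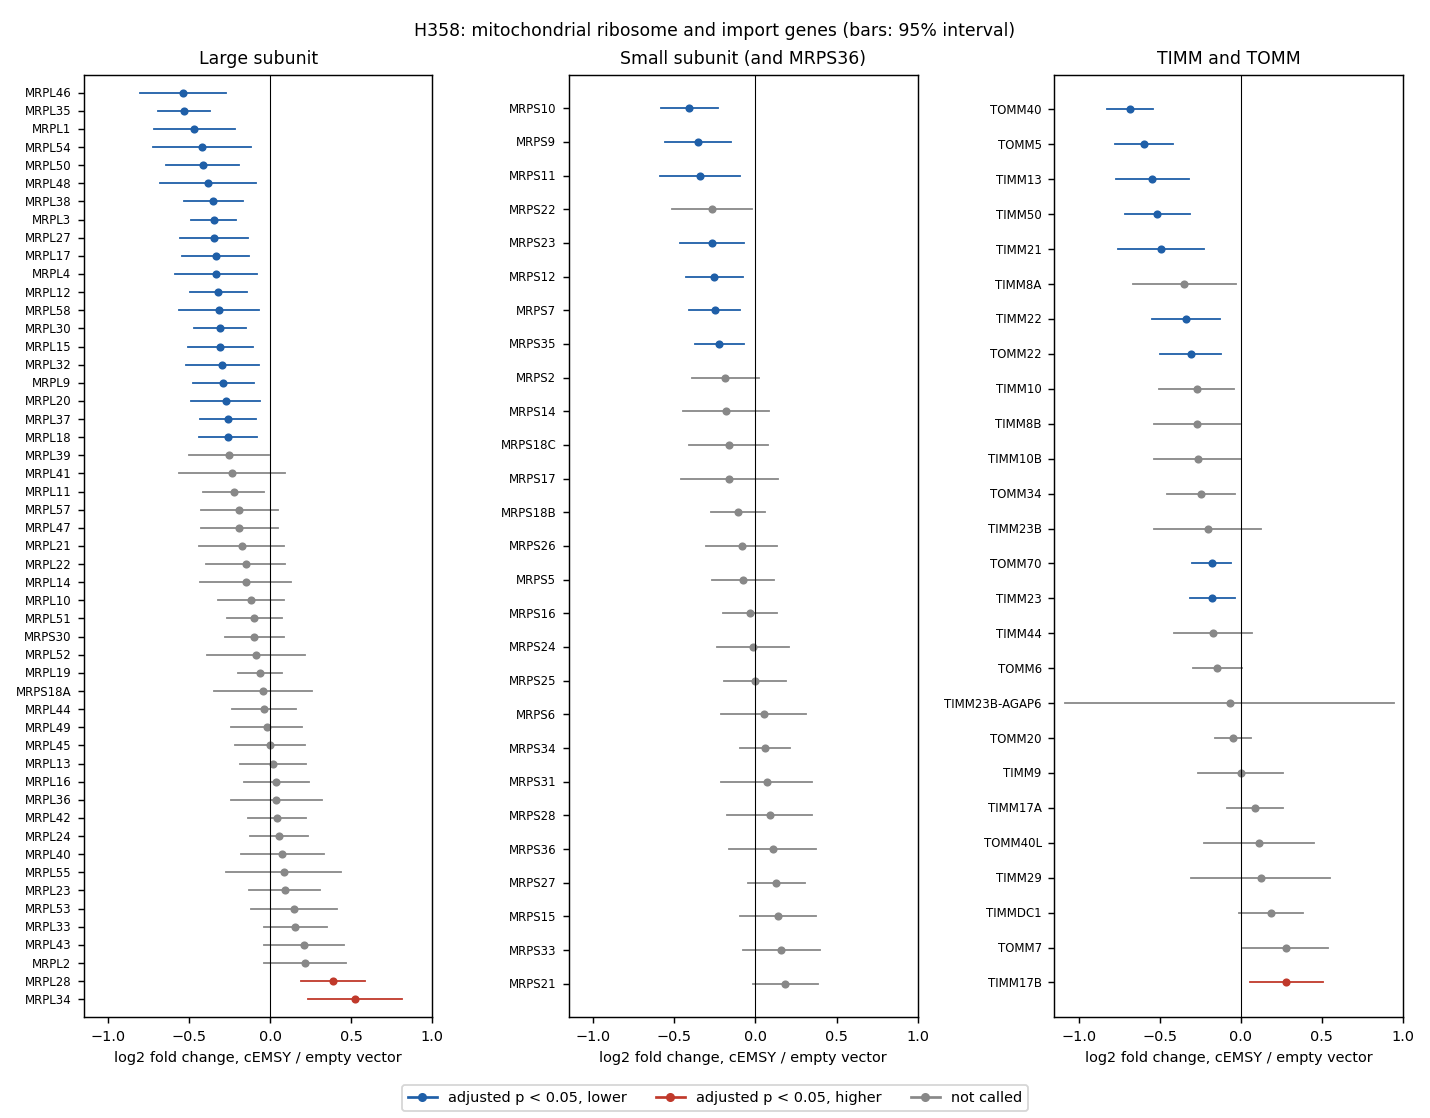
Log2 fold change (cEMSY over empty vector) of all 104 genes in H358 with 95% intervals, from the authors' deposited table, sorted within the large subunit, the small subunit with MRPS36, and TIMM and TOMM genes. Blue marks the 36 genes that passed as lower, red the 3 that passed as higher, and grey the 65 that did not pass.

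The outer-membrane translocase held the largest falls. TOMM40 forms its protein-conducting channel and fell by 0.68 (SE 0.07, adjusted p = 9.9e-20) per the authors' deposited table. On the linear scale TOMM40 fell by 37.6% per the authors' deposited table. TOMM5, a small subunit attached to the channel, fell by 0.60 (SE 0.09, adjusted p = 5.8e-10) per the authors' deposited table. The receptors bind precursors before they enter the channel. TOMM22, the central receptor, fell by 0.31 (SE 0.10) and TOMM70, which receives carrier precursors together with cytosolic chaperones, fell by 0.18 (SE 0.06, adjusted p = 0.0148) per the authors' deposited table. Rescaled here to protein-coding genes of the same signal range, TOMM70 did not pass (adjusted p = 0.0795). TOMM20, the presequence receptor, stood at -0.05 per the authors' deposited table, with a 95% interval from -0.16 to 0.06, the narrowest among the members. TOMM40L, a paralogue of the channel gene, stood at 0.11 (interval from -0.23 to 0.45) per the authors' deposited table, an interval that does not meet that of TOMM40 (from -0.82 to -0.54). Of the other small subunits, per the authors' deposited table, TOMM6 stood at -0.14 (interval from -0.29 to 0.01) and TOMM7 at 0.28 (interval from 0.02 to 0.54, adjusted p = 0.0998), and neither passed. In all, 4 of the 9 TOMM genes (44.4%) fell and 0 rose, and at an unadjusted p under 0.05 TOMM7 alone was higher. Of protein-coding genes in the members' signal range 24.8% were lower and 19.4% higher. Relative to the median of those genes, 3 of the 9 TOMM genes (33.3%) were lower, against 21.3% of those genes.

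In the TIM23 complex 3 (50.0%) of the 6 genes, TIMM23B among them, fell and 1 (16.7%) rose per the authors' deposited table. For protein-coding genes in the members' signal range the shares were 24.8% lower and 19.4% higher. TIMM50, which takes precursors from the outer membrane, fell by 0.51 (SE 0.10), and TIMM21, which links both translocases, fell by 0.49 (SE 0.14), per the authors' deposited table. TIMM23, the core subunit, fell by 0.18 (SE 0.07, adjusted p = 0.042) per the authors' deposited table, and it did not pass relative to protein-coding genes of the same signal range (adjusted p = 0.149). TIMM23 has a near-identical copy, TIMM23B, at -0.20 (interval from -0.53 to 0.12) per the authors' deposited table, and how reads were shared between the copies and the readthrough gene TIMM23B-AGAP6 is not known. The partner of TIMM23 comes in alternative forms, TIMM17A and TIMM17B. TIMM17B rose by 0.28 (SE 0.11, adjusted p = 0.044) per the authors' deposited table, but not relative to the median of all genes (adjusted p = 0.0851). TIMM17A stood at 0.09 per the authors' deposited table, with an interval from -0.08 to 0.26 that overlaps that of TIMM17B (from 0.06 to 0.51). TIMM44, which tethers the import motor, stood at -0.17 (interval from -0.41 to 0.07) per the authors' deposited table.

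On the carrier route, TIMM22, the insertase itself, fell by 0.34 (SE 0.11) per the authors' deposited table. TIMM29, its scaffold subunit, was imprecise at 0.12 per the authors' deposited table (interval from -0.30 to 0.55), with the second-lowest mean signal of the members, 136. TIMM23B-AGAP6 had the lowest mean signal per the authors' deposited table, 52.7, and the widest interval, from -1.08 to 0.94. The small chaperones work as mixed rings, TIMM9 with TIMM10 and TIMM8A with TIMM13. TIMM13 fell by 0.55 (SE 0.11, adjusted p = 1.6e-05) per the authors' deposited table. Its partner TIMM8A, whose loss causes a deafness and dystonia syndrome, stood at -0.35 (interval from -0.67 to -0.03, adjusted p = 0.0905) per the authors' deposited table. TIMM9 stood at -0.00073 (interval from -0.26 to 0.26) and TIMM10 at -0.27 (interval from -0.50 to -0.04, adjusted p = 0.065) per the authors' deposited table. TIMM10, TIMM23B, TOMM6, TOMM7 and TOMM40L were chosen after their values were seen, as partners or paralogues of named genes. In all, 5 of the 17 TIMM genes (29.4%) fell and 1 rose, where 24.8% of protein-coding genes in the same signal range were lower.

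In the large subunit 20 of 51 genes (39.2%) fell, 2 rose and 29 did not pass, with a median log2 fold change of -0.18 per the authors' deposited table. Of protein-coding genes in the members' signal range 24.8% were lower and 19.4% higher. MRPL46 and MRPL35 fell by 0.54 (SE 0.13) and 0.53 (SE 0.08) per the authors' deposited table. MRPL46 is found only in mitochondrial ribosomes, while MRPL35 descends from a bacterial ribosomal protein. MRPL1, which has a bacterial counterpart at the ribosomal stalk, fell by 0.47 (SE 0.13) and MRPL54, specific to mitochondria, fell by 0.42 (SE 0.15) per the authors' deposited table. MRPL12, the stalk protein that also binds the mitochondrial RNA polymerase, fell by 0.32 (SE 0.09) per the authors' deposited table. Against these, MRPL34 rose by 0.52 (SE 0.15, adjusted p = 0.00194) and MRPL28 by 0.38 (SE 0.10, adjusted p = 0.00073) per the authors' deposited table. Both descend from bacterial ribosomal proteins, and both kept their call relative to either median. Of the 20 lower genes, 15 passed relative to protein-coding genes of the same signal range, and MRPL4, MRPL20, MRPL32, MRPL48 and MRPL58 did not (adjusted p from 0.0689 to 0.0886). Apart from MRPL46, MRPL35, MRPL1, MRPL54 and MRPL12, the lower genes fell by between 0.26 for MRPL18 and 0.42 for MRPL50 per the authors' deposited table. MRPL11, at -0.23 (adjusted p = 0.0533) per the authors' deposited table, was the member closest to the threshold without passing. MRPL11, MRPL18, MRPL50 and the 5 that lost their call are named after their values were seen.

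In the small subunit 7 of 26 genes (26.9%) fell, 0 rose and 19 did not pass, with a median of -0.10 per the authors' deposited table. At an unadjusted p under 0.05 the count of higher genes was also 0. MRPS10 fell by 0.41 (SE 0.09), MRPS9 by 0.35 (SE 0.10), MRPS11 by 0.34 (SE 0.13) and MRPS23 by 0.27 (SE 0.10) per the authors' deposited table. The first 3 have bacterial counterparts in the small subunit, and MRPS23 is specific to mitochondria. MRPS12, the counterpart of the bacterial protein at the decoding site, fell by 0.25 (SE 0.09, adjusted p = 0.0168) per the authors' deposited table. Relative to protein-coding genes of the same signal range, MRPS11, MRPS12, MRPS23 and MRPS35 did not pass (adjusted p from 0.0545 to 0.0704), which left 3 of 26 (11.5%) lower. The share of 26.9% was close to the 24.8% of protein-coding genes in that range, so the lower count is not particular to the small subunit. MRPS35 was named after its values were seen. MRPS36, the protein that is not ribosomal, stood at 0.10 (interval from -0.16 to 0.37) per the authors' deposited table.

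By descent, of the 46 with a bacterial homologue 18 (39.1%) fell and 2 rose, with a median of -0.17 per the authors' deposited table. Of the 29 specific to mitochondria 9 (31.0%) fell and 0 rose (also 0 at an unadjusted p under 0.05), with a median of -0.10 per the authors' deposited table. Of protein-coding genes in the members' signal range 24.8% were lower and 19.4% higher. Relative to the median of those genes, calls were lost in both groups, such as MRPL4 in the first and MRPL48 in the second. The difference between these groups was not tested. The proteins related to bacterial S18 illustrate the range of precision. MRPS18A stood at -0.05 (interval from -0.35 to 0.25), MRPS18B at -0.11 (from -0.28 to 0.06) and MRPS18C at -0.17 (from -0.41 to 0.08) per the authors' deposited table, and their intervals overlap. They were chosen as a family after their values were seen.

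Calls were more frequent at higher mean signal. Of the 35 members with the lowest mean signal 7 (20.0%) fell, of the 34 in the middle 12 (35.3%), and of the 35 with the highest 17 (48.6%). The median log2 fold changes were -0.16, -0.19 and -0.14 per the authors' deposited table. Across the members' whole signal range 24.8% of protein-coding genes were lower. Their share at each signal level was not taken, so whether the rise in calls is particular to the members was not tested. Across the 104 genes, measured in the same libraries, Spearman's rho between mean signal and log2 fold change was -0.07. The median shift was similar at low and high signal, while the number of calls differed.

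**Figure D2:**
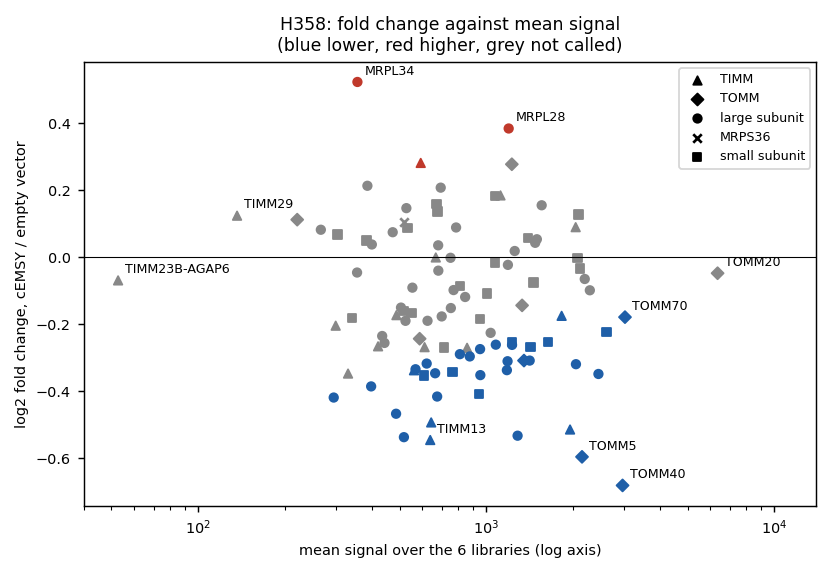
Mean signal over the 6 H358 libraries (log axis) against log2 fold change (cEMSY over empty vector) of the 104 genes, from the authors' deposited table, with marker shape for the role and colour for the call. Blue points occur more often to the right, where the SE is smaller, and the grey points include TOMM20, which has the highest signal, 6355.

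Other genes of mitochondrial translation had few calls, in both directions, and how they differ from the members was not tested. Of the 5 ribosomal proteins that lack the prefix (such as DAP3 and PTCD3), 0 passed in either direction per the authors' deposited table, also 0 at an unadjusted p under 0.05, and their median was -0.12. Of 26 assembly and rRNA modification factors 4 (15.4%) fell and 3 (11.5%) rose, where 21.3% and 18.3% of protein-coding genes did. MRM1, a methyltransferase of the large mitochondrial rRNA, fell by 0.51 (SE 0.21) and FASTKD2, which is needed for large subunit assembly, fell by 0.36 (SE 0.10) per the authors' deposited table. YBEY, an endoribonuclease, rose by 0.41 (SE 0.15) and NOA1, a GTPase, rose by 0.37 (SE 0.12) per the authors' deposited table. Among 14 translation factors 1 (7.14%) fell and 1 (7.14%) rose. LRPPRC, which stabilises mitochondrial mRNAs, fell by 0.20 (SE 0.06) per the authors' deposited table. OXA1L, the insertase beside the ribosome's exit, rose by 0.23 (SE 0.07) per the authors' deposited table. Of 17 mitochondrial tRNA synthetases 1 (5.88%) fell and 2 (11.8%) rose. MARS2 fell by 0.35 (SE 0.14), while TARS2 rose by 0.41 (SE 0.14) and HARS2 by 0.21 (SE 0.09), per the authors' deposited table. The shares of both lists stood below the 21.3% lower and 18.3% higher of protein-coding genes.

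Import partners without the prefix had calls in both directions, at shares near those of all genes. Of 16 such genes 3 (18.8%) fell and 2 (12.5%) rose per the authors' deposited table. Over all genes 16.8% and 15.6% did, and over protein-coding genes 21.3% and 18.3%. DNLZ, a chaperone of mitochondrial HSP70, fell by 0.84 (SE 0.26) and SAMM50, which inserts barrel proteins such as TOMM40 into the outer membrane, fell by 0.30 (SE 0.09) per the authors' deposited table. DNAJC15, a co-chaperone of the import motor, rose by 2.66 (SE 0.45) per the authors' deposited table. Its mean signal of 37.7 was below that of every member. AIFM1, the partner of the intermembrane-space import receptor, rose by 0.36 (SE 0.07) per the authors' deposited table. Of 9 genes for presequence processing and folding 2 (22.2%) fell and 1 (11.1%) rose per the authors' deposited table. Those that fell are the paired chaperonin genes HSPE1 (by 0.71, SE 0.07) and HSPD1 (by 0.48, SE 0.05). IMMP2L, an inner membrane peptidase, rose by 0.62 (SE 0.16) per the authors' deposited table. Of 9 protease genes 1 (11.1%) fell, YME1L1 by 0.26 (SE 0.08), and 1 (11.1%) rose, CLPP by 0.36 (SE 0.15), per the authors' deposited table.

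Regulators of mitochondrial biogenesis were mostly lower in H358. Of 15 such genes 8 (53.3%) fell and 1 (6.67%) rose per the authors' deposited table, with a median of -0.29. Of protein-coding genes in the members' signal range 24.8% were lower and 19.4% higher. The list was drawn with earlier results of these data known, and its counts at the other scalings were not taken. GABPB1, a subunit of an ETS-family activator of nuclear genes for mitochondria, fell by 0.64 (SE 0.11) and NRF1, the other classical activator of such genes, fell by 0.57 (SE 0.18) per the authors' deposited table. TFAM, SSBP1, TWNK, PPRC1, YY1 and MYC also passed as lower, with values between -0.41 and -0.27 per the authors' deposited table. POLRMT, the mitochondrial RNA polymerase, rose by 0.72 (SE 0.14) per the authors' deposited table.

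The mitochondrially encoded transcripts were mostly higher, and these include the RNA of the same ribosome. Of 15 such transcripts 10 (66.7%) rose, 1 (6.67%) fell and 4 did not pass per the authors' deposited table, with a median of 0.27. Over all genes 15.6% were higher and 16.8% lower. The mean signals ran from 9514 for MT-ATP8 to 362734 for MT-CO1, above the members' highest of 6355. No background share was taken at such signals. MT-RNR2, the large subunit rRNA, rose by 0.72 (SE 0.07) and MT-RNR1, the small subunit rRNA, rose by 0.59 (SE 0.08) per the authors' deposited table. The libraries were depleted of rRNA, so these values describe what depletion left, and its part in the result was not tested. MT-CO1 rose by 0.65 (SE 0.07), and MT-ND2 was the transcript that fell, by 0.23 (SE 0.06), per the authors' deposited table.

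For setting, the 84 cytosolic ribosomal protein genes counted 1 (1.19%) lower and 19 (22.6%) higher per the authors' deposited table, with a median of 0.11. The 79 nuclear-encoded subunits of oxidative phosphorylation counted 4 (5.06%) lower and 13 (16.5%) higher, with a median of 0.04 per the authors' deposited table. Over protein-coding genes 21.3% were lower and 18.3% higher, so both higher shares were near that background and both lower shares below it. These lists were drawn by symbol after the values were seen, and the differences between them and the members were not tested.

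**Figure D3:**
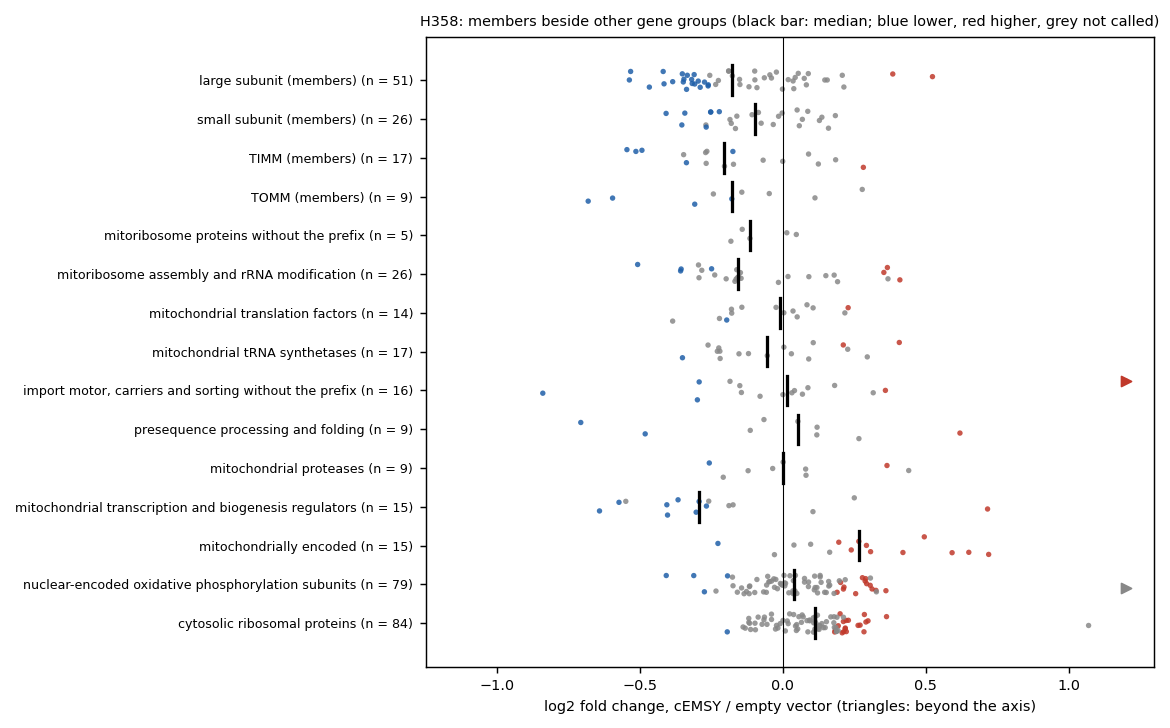
Log2 fold change (cEMSY over empty vector) in H358 for the members by role and for 11 other gene groups, from the authors' deposited table, each point a gene and each black bar the median. The medians of the 4 member groups lie between -0.20 and -0.10, that of the biogenesis regulators at -0.29 and that of the mitochondrially encoded transcripts at 0.27. Triangles stand for genes beyond the axis, coloured by call.

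Markers of other cell types were sparse in H358. Of 7 leukocyte markers 2 were listed per the authors' deposited table, CD68 at -0.75 and CD74 at 3.16, the latter at a mean signal of 11.9. Of 4 endothelial markers 2 were listed and of 4 fibroblast markers 3, while all 5 epithelial markers were listed. Of the epithelial markers 4 passed as lower per the authors' deposited table, KRT19 at -3.91, KRT8 at -0.43, KRT18 at -0.38 and CDH1 at -0.37. EPCAM stood at 0.43 (SE 0.42, adjusted p = 0.484, mean signal 40.7) per the authors' deposited table and did not pass. The fibroblast markers gave 0 calls, also 0 at an unadjusted p under 0.05. Among the endothelial markers CDH5 passed as lower at -4.96, at a mean signal of 2.75 per the authors' deposited table. PECAM1 stood at 2.67 (SE 1.66, adjusted p = 0.228, mean signal 2.52) per the authors' deposited table and did not pass. Their part in the member results was not tested.

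In LLC1 cells with cEmsy, the small import chaperone genes Timm9 and Timm8a1 were the members listed, and both were lower. The LLC1 table is a selection that the authors named as differentially expressed, so listing is itself the first result. Of the 104 protein-coding mouse genes with these prefixes in GENCODE M21, 2 were listed (1.92%), where 1785 of 21951 protein-coding genes (8.13%) were. For the genes that were not listed no value was used here, and nothing is said of their direction. The deposited signal has no named unit, and the library totals over the listed rows were between 28993 and 31659.

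Timm9 (ENSMUSG00000021079; chromosome 12, 71123173 to 71136684, minus strand, mm10) encodes a subunit of the ring that carries hydrophobic precursors to the TIM22 complex. Its signal was 12.7, 16.2 and 14.9 in the cEmsy libraries, against 32.0, 33.6 and 35.7 in the empty-vector libraries. The groups did not overlap, and the lowest empty-vector library stood well above the highest cEmsy library. The means were 14.6 ± 1.77 with cEmsy and 33.8 ± 1.87 with empty vector (SD, n = 3 each), and Timm9 fell by 1.16 on the log2(value + 1) scale (SE 0.09, limma, adjusted p = 8.5e-07).

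Timm8a1 (ENSMUSG00000048007; chromosome X, 134537256 to 134541865, minus strand, mm10) is the mouse counterpart of TIMM8A and works with Timm13. Its signal was 31.5, 29.6 and 33.2 in the cEmsy libraries, against 71.1, 68.3 and 71.6 in the empty-vector libraries. Again the groups did not overlap, and each group was tight. The means were 31.4 ± 1.79 with cEmsy and 70.4 ± 1.76 with empty vector (SD, n = 3 each), and Timm8a1 fell by 1.14 on the same scale (SE 0.07, limma, adjusted p = 1.0e-07).

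The ratio of the cEmsy mean to the empty-vector mean was 0.433 for Timm9 and 0.447 for Timm8a1. Among the 2111 rows fitted, 52.6% passed as lower, 47.3% as higher and, rounded, 100% in either direction, and in 99.8% the groups did not overlap, so passing and separation are the rule in this selected table and carry little weight for these genes. The median log2 fold change over the fitted rows was -0.58. Centring each library on its median shifted all fold changes by 0.20, after which Timm9 stood at -0.96 and Timm8a1 at -0.94, and both still passed.

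Bases just before the start of each gene are shown because these are the members with a value per library here, and both were lower with cEmsy. They come from RefSeq windows on GRCm38.p6, are written 5′ to 3′ on the minus strand, and carry the E-box CACGTG in capitals. The annotations place the starts differently, at 71136684 for Timm9 in GENCODE M21 and 71136675 in RefSeq, and at 134541865 for Timm8a1 in GENCODE M21 and 134541670 in RefSeq. The last 9 bases of the Timm9 window and the last 195 of the Timm8a1 window thus lie inside the GENCODE gene and were left out, which leaves 241 and 55 bases.
Timm9, chr12:71136685-71136925: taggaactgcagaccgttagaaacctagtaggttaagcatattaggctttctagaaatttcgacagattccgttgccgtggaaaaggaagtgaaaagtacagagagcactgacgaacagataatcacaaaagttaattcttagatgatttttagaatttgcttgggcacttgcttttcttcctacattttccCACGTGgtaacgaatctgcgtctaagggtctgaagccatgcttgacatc
Timm8a1, chrX:134541866-134541920: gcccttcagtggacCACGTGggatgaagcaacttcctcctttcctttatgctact

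Each stretch holds 1 E-box, at 49 to 44 bases before the GENCODE start in Timm9 and at 41 to 36 bases before it in Timm8a1. Counted from the RefSeq start, the distances are 58 to 53 bases in Timm9 and 236 to 231 bases in Timm8a1. Motif shares were taken over whole windows of 250 bases before the RefSeq start. The E-box occurs in 6.02% of all 32851 mouse windows of this length, and in 11 of 100 windows of the 92 member genes that matched the RefSeq table. The other motifs searched on both strands were an ETS core (CCGGAAG), the CCAAT box (CCAAT), a YY1 motif (AAGATGGC) and an NRF1 core (GCATGCGC), letters chosen after the data were seen. None of these letters occurs in the windows of Timm9 or Timm8a1. The ETS core occurs in 28 of the 100 member windows and in 6.91% of all windows, the CCAAT box in 35 and 33.8%, the YY1 motif in 4 and 1.56%, and the NRF1 core in 9 and 2.26%. Letters in a window are not binding sites, and nothing about a factor follows from them.

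The values of the same chaperones in both lines are set side by side. Timm9 stood at -1.16 in LLC1 and TIMM9 at -0.00073 in H358, and Timm8a1 stood at -1.14 in LLC1 and TIMM8A at -0.35 in H358, the LLC1 values from limma and the H358 values from the authors' deposited table. The difference between lines was not tested, since the tables were made separately and the LLC1 table holds selected rows.

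Of the other lists, 3 genes were listed in LLC1. As for the members, passing is the rule in this selected table and carries little weight for these genes. Mrm3, a methyltransferase of the large mitochondrial rRNA, stood at 5.48 ± 0.798 with cEmsy and 11.2 ± 0.0480 with empty vector (SD, n = 3 each) and fell by 0.92 (SE 0.10, limma, adjusted p = 6.7e-06). Mpv17l2, an inner membrane protein that binds the large mitochondrial subunit, stood at 28.1 ± 4.59 with cEmsy and 12.1 ± 0.521 with empty vector (SD, n = 3 each) and rose by 1.14 (SE 0.11, limma, adjusted p = 3.3e-06). Ppargc1a, a coactivator of mitochondrial biogenesis, stood at 1.38 ± 0.232 with cEmsy and 2.93 ± 0.320 with empty vector (SD, n = 3 each) and fell by 0.73 (SE 0.10, limma, adjusted p = 6.1e-05). Of the H358 counterparts, MRM3 stood at -0.20, MPV17L2 at 0.18 and PPARGC1A at -0.55 per the authors' deposited table, and none passed (adjusted p = 0.265, 0.539 and 0.281). Of the marker lists, Cd68 and Cd74 were listed in LLC1, Cd68 higher and Cd74 lower, and no endothelial, fibroblast or epithelial marker was. Their part in the member results was not tested.

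**Figure D4:**
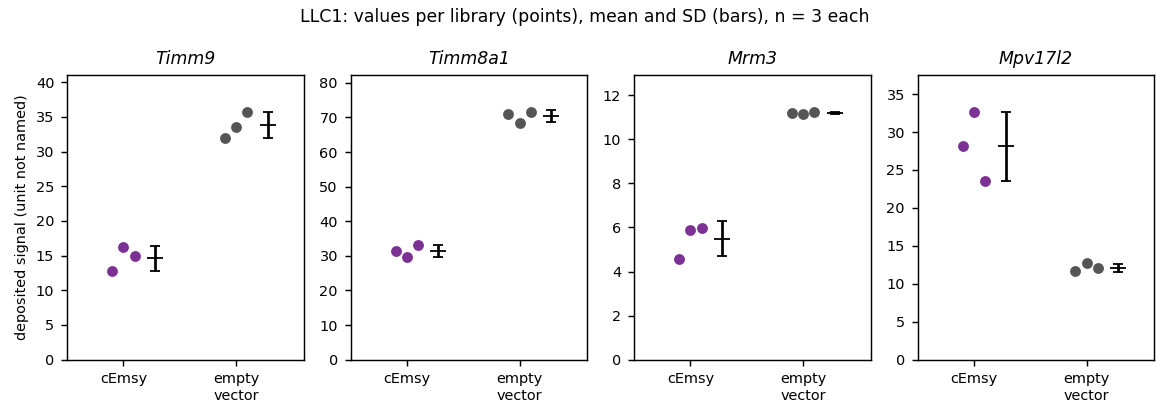
Deposited signal (linear axis from 0, unit not named) of Timm9, Timm8a1, Mrm3 and Mpv17l2 in each of the 3 cEmsy and 3 empty-vector LLC1 libraries, with mean and SD beside the points. The groups do not overlap in any of the 4 genes, as in 99.8% of the rows fitted from this selected table. Mpv17l2 is the gene that is higher with cEmsy.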

How the data were processed

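Per the labels' protocols, total RNA was depleted of rRNA and made into stranded libraries. Tools named in the submitters' processing notes are STAR and featureCounts, besides FastQC and MultiQC for quality. Builds named there are hg19 and mm10, and neither list gives a version or role. For H358 the authors deposited, per the file headers, a gene-level signal averaged over libraries, a log2 fold change with its error, a score (fold change over error, within 0.001 in all 20347 rows), a p-value and an adjusted p-value. No source used here names the tool behind this comparison. The adjusted p-value was absent for 1193 genes and equals a Benjamini-Hochberg adjustment over the others. Intervals are the estimate ± 1.96 SE. For LLC1 the authors deposited a signal per gene, without a unit, for 6 libraries. Its control columns carry the name NC and were taken as the empty-vector group without single labels. On log2(value + 1) of the LLC1 table, limma 3.58.1 (R 4.3.3) was fitted with its trend option over 2111 rows with a mean of 0.5 or more, with Benjamini-Hochberg adjustment. The design foresaw count tests, but the files held no counts. The fit was tested on simulated data in which only a part of the rows was changed. Nearly all rows of the selected LLC1 table passed, so that check says nothing of error rates there. Depth is unknown in both tables.

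Genes were named by a rule: members listed in LLC1, up to 4 largest falls and rises that passed in each role group, a set of core subunits, and the extremes of mean signal. From each other list the 2 largest in each direction were taken. Members and lists were chosen with earlier results of these data known. Alternatives covered the adjustment, thresholds, filters, scaling, pseudocount and left-out libraries. ICT1 was dropped from the list of proteins without the prefix, since it is an older name of the member MRPL58. Marker and regulator genes beyond those 2 per direction were named to complete a count.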

Additional observations from a re-analysis of the deposited data

How the results depend on the processing

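In H358 the count of members passing as lower was 36. It was 20 at an adjusted p of 0.01 and 6 where an absolute log2 fold change of 0.5 was also needed, and with that minimum 1 member rather than 3 passed as higher. A minimum mean signal of 10 and adjustment over protein-coding genes alone gave 37 lower each, no filter gave 36, and scaling to the median of all genes gave 40. Scaling to the protein-coding genes of the same signal range, chosen after seeing the data, gave 25. No estimate that passed changed sign under these alternatives. In LLC1, Timm9 ranged from -1.23 to -0.96 and Timm8a1 from -1.18 to -0.94 over all alternatives, left-out libraries included. Both passed in each, but nearly all rows of this selected table passed, so the unchanged count of 2 carries little weight. The numbers in the LLC1 control columns are not tied to labelled libraries. With the column number as a replicate block, an alternative chosen after seeing the data, Timm9 stayed at -1.16 (limma, adjusted p = 1.9e-07) and Timm8a1 at -1.14 (adjusted p = 8.4e-08), 2 members passed as lower, and 2111 rather than 2110 rows passed. Deviations of same-numbered columns correlated at 0.05, 0.03 and 0.07, and not every column correlated best with its own number, so the columns share only a number. In H358, which has no values per library here, no block could be fitted, no library left out and no test on counts run. Depth is unknown in both tables, so counting error cannot be given.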
